A study of Mus musculus with 2 samples.

Results

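The detected microRNA precursor genes are the mouse genes with a symbol of the Mir or Mirlet7 series whose probe set read above a detection level on at least 1 of 2 arrays. They number 174 of the 483 microRNA genes with a probe set of their own, and of 22180 genes measured in all. They were chosen by their levels on these arrays, so their being above the level is no result. RefSeq classes 173 of the 174 as microRNA genes and the remaining one, Mir99ahg, as a long non-coding RNA, the host transcript of the miR-99a cluster. By RefSeq class the name "precursor" fits all but that one, and which RNA each probe set reads was not tested.

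M210B4, a stromal line established from mouse marrow, was cultured for 24 h with an activating anti-CD84 antibody or with an isotype antibody of class IgG1. The antibody's target, CD84, belongs to the SLAM family of receptors and binds itself on neighbouring cells. Both cultures stood at 37 °C and 5% CO2 in RPMI medium reduced to 2% FCS, with 200000 cells per treatment, and no other agent or genetic change is named for either. A single Mouse Gene 2.0 ST array from Affymetrix covers each treatment, so every difference below is between 2 arrays, with no replicate check, no error and no p-value. Values are log2 expression values, and a difference is anti-CD84 minus IgG1.

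MicroRNAs are cut from hairpins within longer primary transcripts, first by Drosha with Dgcr8 in the nucleus and then by Dicer1 in the cytoplasm, and the mature strand guides an Argonaute protein to matching sites in messenger RNAs. Bases 2 to 8 of the mature strand, the seed, carry most of the pairing, so microRNAs with 1 seed share many targets. Many hairpins sit in introns of host genes or side by side in clusters that are transcribed as 1 RNA. A precursor probe set on this kind of array can read the hairpin, the primary transcript or any other RNA that matches its probes, and it does not tell the 5p strand from the 3p strand. In RNA from a whole culture, fewer cells with a transcript and less transcript per cell cannot be told apart.

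The sequences below are those of the members on which the family and cluster results turn, from RefSeq (GRCm38.p6), written 5′ to 3′ with the seed in capitals. The first set holds the 3 families with at least 3 detected members that share a seed, and the miR-23 and miR-27 strands of the cluster on chromosome 8.
let-7a-5p: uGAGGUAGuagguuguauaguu
let-7c-5p: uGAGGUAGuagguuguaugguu
let-7e-5p: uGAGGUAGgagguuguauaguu
miR-15a-5p: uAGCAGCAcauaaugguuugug
miR-16-5p: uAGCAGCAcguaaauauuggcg
miR-181a-5p: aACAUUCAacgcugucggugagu
miR-181c-5p: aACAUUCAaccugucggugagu
miR-181d-5p: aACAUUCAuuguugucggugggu
miR-23a-3p: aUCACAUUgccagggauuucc
miR-27a-3p: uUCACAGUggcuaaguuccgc
Mir23a and Mir23b lie on different chromosomes, at chr8:84208518-84208592 and chr13:63300484-63300557, both on the plus strand. Their hairpins are shown because both were higher after anti-CD84, and they share a run of 20 bases around the same seed, again in capitals.
Mir23a hairpin: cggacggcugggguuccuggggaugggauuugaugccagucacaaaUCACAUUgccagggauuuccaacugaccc
Mir23b hairpin: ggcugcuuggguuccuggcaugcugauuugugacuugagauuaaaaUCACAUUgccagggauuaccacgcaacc
The second set holds strands of 4 members among those with the largest differences measured above the level on both arrays, which share no seed with one another.
miR-677-5p: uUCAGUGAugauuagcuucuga
miR-1933-3p: cCAGGACCaucagugugacuau
miR-188-5p: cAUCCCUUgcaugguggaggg
miR-3095-3p: uGGACACUggagagagagcuuuu

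The line carried most of the listed marks of marrow stroma. Of 12 such markers 9 were detected, beside 59.9% of all 22180 genes measured. Fn1, Col1a1 and Col1a2 were above 12 on both arrays, while Eng, Nt5e and Lepr were below the detection level on both. Thy1 was above it on the IgG1 array alone, at 4.39 after anti-CD84 and 4.95 after IgG1. Cxcl12 (10.29 and 9.19, 2.15-fold) and Pdgfra (10.21 and 9.29, 1.89-fold) were higher after anti-CD84. The other 7 detected stroma markers lay within 1.5-fold. Of 6 leukocyte markers, among them Ptprc, 0 were detected, and Klf1 of the red cell lineage was not detected either. The endothelial list had 2 of 4 markers detected, both on the IgG1 array alone (Cdh5 at 4.61 against 5.56, Pecam1 at 4.32 against 4.99), and its summed level was 6.32 after anti-CD84 and 6.91 after IgG1. The adipocyte list had 1 of 4 detected, Plin1, with summed levels of 6.16 and 6.09 in the same order. The part of these markers in the results below was not tested. Over the 41345 probe sets Pearson's r between the arrays was 0.967, with medians of 4.87 after anti-CD84 and 4.88 after IgG1.

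The detection level was 4.84, the 95th percentile of 1394 olfactory and vomeronasal receptor genes, taken as genes silent outside sensory neurons. MicroRNA genes passed it less often than genes in general, at 36.0% of 483 against 59.9% of 22180. On the anti-CD84 array 156 microRNA genes were above it and on the IgG1 array 149. Of the 174 members 131 were above it on both arrays, 25 on the anti-CD84 array alone and 18 on the IgG1 array alone. A member seen on 1 array alone had to differ, so no count over such members is read as a result. Just inside the level were Mir667 (4.16 after anti-CD84, 4.84 after IgG1), Mir451a (4.17 and 4.84) and Mir34b (4.86 and 4.36). Just outside were Mir680-1 (3.72 and 4.83), Mir1192 (4.44 and 4.81) and Mir680-3 (4.74 and 4.81).

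Most members were dim. Their mean level over the arrays ran from 4.23 to 12.82 with a median of 5.71, against a median of 7.05 for all 13283 detected genes. A mean under 6 was found for 102 members, a mean of 6 to 8 for 53 and a mean of 8 or more for 19. Between the arrays the levels of the members correlated with an r of 0.923 across genes, which is a description over probe sets of the same 2 samples.

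The brightest members differed little between the cultures. Mir5099 read 12.78 after anti-CD84 and 12.86 after IgG1. Mir449b, of a family best known from multiciliated cells, read 11.57 and 11.58, and Mir692-1 read 11.36 and 11.24. These 3 lay within 0.12 of each other between arrays. Mir5125, inside the span of the splicing factor gene Srrm2, read 9.89 and 9.88, Mir466h 9.22 and 9.23, and Mir1195 9.15 and 9.18. Mir703 was the brightest with a wider gap, at 9.91 after anti-CD84 and 10.46 after IgG1. Mir761, in the Nrd1 gene, read 8.81 and 9.24, and Mir1956, in the translation factor gene Eif4e, 8.28 and 8.56. Mir680-2 lay the other way, at 9.03 and 8.56. Of the 12 brightest members 2 reached 1.5-fold, Mir1946a (9.54 and 8.92, higher after anti-CD84) and Mir5112 (8.14 and 9.01, lower after anti-CD84). Levels of different probe sets depend on their probes and do not rank the amounts of these RNAs. Several of the bright members are known mainly by number, and no role is given for them.

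The members had a median difference close to that of all detected genes. Their median difference was 0.10, beside 0.09 for all detected genes, and 98 of 174 were higher after anti-CD84. For the 131 members above the level on both arrays the median was 0.07, beside 0.09 for genes above it on both. Of these 131 members 73 were higher. The share of all detected genes that were higher was not counted, so nothing is read from the 98 or the 73. The SD of the differences was 0.45 for the 131 members above the level on both arrays, beside 0.39 for the 11761 genes above it on both. At least 1.5-fold higher were 30 members, or 17.2%, against 10.7% of all detected genes, and at least 1.5-fold lower were 24, or 13.8%, against 6.4%. Of these, 14 higher and 12 lower members were above the level on 1 array alone and so had to differ, and nothing is read from the shares over all 174. Centring on the detected genes' median turned these counts to 24 higher and 29 lower, so which direction held more members depended on the scaling. At 2-fold there were 9 higher and 4 lower members, against 1.98% and 1.43% of all detected genes, and 9 and 8 after centring (9 and 7 with a loess curve removed or with quantile normalization). Of the 9 higher, 2 were above the level on both arrays, and of the 4 lower, 0 were.

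**Figure D1:**
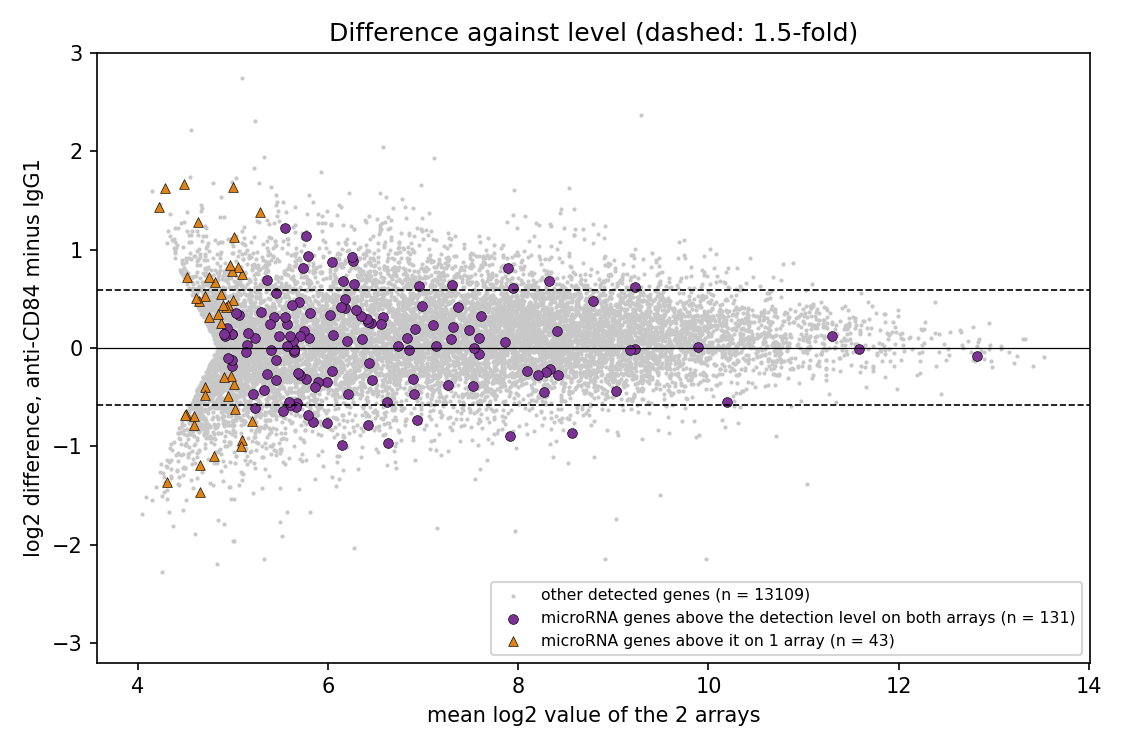
Log2 difference, anti-CD84 minus IgG1 (vertical axis), against the mean log2 value of the 2 arrays (horizontal axis) for all detected genes, each gene 1 point from 1 array per group. Circles are the 131 microRNA genes above the detection level on both arrays, triangles the 43 above it on 1 array, and dashed lines mark 1.5-fold. The triangles sit at the dim end, where a gene above the level on 1 array has to lie away from the zero line.

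The 72 members with a mean of 6 or more were all above the level on both arrays. In the band from 6 to 8 the 53 members gave 17% higher and 9.43% lower, and the 4621 genes 13.8% and 4.52%. Of the 19 members at 8 or more, 2 were higher and 1 lower, and of the 4412 genes there 6.19% were higher and 1.72% lower. For the 131 members that passed on both arrays the shares were 12.2% higher and 9.16% lower, against 9.57% and 3.89% of 11761 genes. At 2-fold 2 of them were higher and 0 lower, against 1.45% and 0.519%. No test of these shares exists with 1 array per group.

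Of the members above the detection level on both arrays, 16 were at least 1.5-fold higher after anti-CD84. Mir677 had the largest difference, at 6.16 after anti-CD84 and 4.94 after IgG1, which is 2.33-fold. Its 5p strand, printed above, lies at chr10:128085291-128085312 on the plus strand, within the span of Atp5b, the beta subunit gene of ATP synthase, itself at 12.40 and 12.15. Mir1933 followed at 6.33 and 5.2, or 2.2-fold, inside Ugp2, the gene of the enzyme that makes UDP-glucose, whose levels were 8.95 and 8.81. These 2 were the members past 2-fold with both arrays above the level, and in each the host gene differed by far less.

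Mir23a, whose mature strand is abundant in many adherent cells, read 8.30 after anti-CD84 and 7.49 after IgG1, a 1.75-fold difference. Its neighbour Mir27a, known for restraining fat cell formation, read 8.26 and 7.64, or 1.53-fold. Mir23b, of the paralogous cluster, read 6.70 and 5.82, or 1.84-fold. Its host Aopep differed the other way, at 6.66 and 7.08. The 3 detected precursors of the 2 clusters were thus higher by similar amounts on these arrays, and they remained higher under each of 3 other scalings, with Mir27a between 0.49 and 0.53 on the log2 scale there and so under 1.5-fold. Probe sets that name Mir24-1, Mir24-2 or Mir27b carry several gene symbols and were not used here. The shared run of 20 bases printed above means that the Mir23a and Mir23b probe sets may read partly the same RNA, which was not tested.

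Mir15a read 6.71 after anti-CD84 and 5.78 after IgG1, or 1.90-fold. It forms a cluster with Mir16-1, 5.40 and 5.52, inside the Dleu2 host transcript, which read 6.74 and 6.76. These are microRNAs that restrain BCL2 and cyclins and that are lost in many human chronic lymphocytic leukaemias. One hairpin of this pair was therefore higher while its neighbour and its host were level between the cultures. The paralogous Mir16-2, which yields the same miR-16-5p strand, read 5.00 and 4.75, and Mir15b was below the level at 3.79 and 3.20.

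Mir181a-2, of a family that tunes antigen receptor signalling in developing lymphocytes, read 6.14 after anti-CD84 and 5.33 after IgG1, or 1.75-fold. Mir181c (5.84 and 5.40) and Mir181d (7.57 and 7.39), neighbours on chromosome 8, lay in the same direction within 1.5-fold. Of 6 measured family members 3 were detected and those 3 were higher, a direction that held under the 3 other scalings. The smallest of the 3 differences was 0.18, and it lay between 0.06 and 0.1 under those scalings. How many of all detected genes were higher was not counted, so nothing is read from the 3. The other members, Mir181a-1, Mir181b-1 and Mir181b-2, lay between 3.01 and 4.43.

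Mir145a, a microRNA of smooth muscle and fibroblast lineages, read 5.70 after anti-CD84 and 5.01 after IgG1, or 1.62-fold. Its cluster partner Mir143 read 7.64 and 7.54, a difference of 0.10 that became -0.02 with a loess curve removed. Carmn, the long RNA whose span holds the pair, read 8.23 and 7.65, just past 1.5-fold higher. Mir210, the microRNA best known for induction by low oxygen, read 7.27 and 6.65, or 1.54-fold. Mir3109, in the annexin gene Anxa2, read 6.26 and 5.32, or 1.92-fold, while Anxa2 read 10.99 and 11.03.

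The other 6 higher members were Mir297a-4 (1.83-fold), Mir1938 (1.61-fold), Mir669g (1.60-fold), Mir3068 (1.57-fold), Mir1898 (1.55-fold) and Mir1946a (1.54-fold). Those between 1.53-fold and 1.57-fold, namely Mir27a, Mir1946a, Mir210, Mir1898 and Mir3068, were under 1.5-fold once the difference was centred. Mir1938 was also under it with a loess curve removed, and Mir669g with quantile normalization or the mean of its probe sets. Mir1898 lies in Zfr, an RNA-binding protein gene at 10.37 and 10.32, and Mir1938 in Ifrd1, at 8.84 and 8.76. Neither host differed by more than 0.09.

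At least 1.5-fold lower after anti-CD84, with both arrays above the level, were 12 members. Mir188 read 5.66 after anti-CD84 and 6.65 after IgG1, or 1.99-fold lower. It lies with Mir532 (5.06 and 4.92) in the chloride transporter gene Clcn5, which differed the other way, at 6.79 and 5.87. Mir874 read 6.15 and 7.12, or 1.96-fold lower, and its host Klhl3, a ubiquitin ligase adaptor, was below the level on both arrays at 4.0 and 4.47. Both microRNA genes were thus lower without a lower detected host.

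Mir3095 read 7.46 after anti-CD84 and 8.36 after IgG1, or 1.86-fold lower, inside Lpar1, a lysophosphatidic acid receptor gene at 6.29 and 6.51. Mir5112 was 1.83-fold lower and was the brightest of the group. Mirlet7e read 5.47 and 6.22, or 1.68-fold lower, whereas its cluster partner Mir99b read 7.21 and 6.78 and the host Spaca6, a sperm membrane protein gene, 9.37 and 8.81. The partners of this cluster therefore differed in opposite directions. A second Mirlet7e probe set read 3.80 and 5.04, also lower after anti-CD84, but it was below the level on the first array.

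Mir92b, which shares its seed with the last microRNA of the miR-17-92 cluster, read 6.58 after anti-CD84 and 7.31 after IgG1, or 1.66-fold lower. Mir375, known from pancreatic islets, read 5.45 and 6.13, or 1.60-fold lower. Mir341, in the imprinted Dlk1-Dio3 region, read 5.61 and 6.37, or 1.70-fold lower, and the host Rian was not detected (3.28 and 3.61). The remaining 4 were Mir1963 (1.71-fold), Mir298 (1.56-fold), Mir3110 (1.53-fold) and Mir598 (1.51-fold). Mir1963 lies in Ryr1, which differed the other way, at 5.82 after anti-CD84 and 5.52 after IgG1. The 12 lower members stayed past 1.5-fold under the 3 other scalings.

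**Figure D2:**
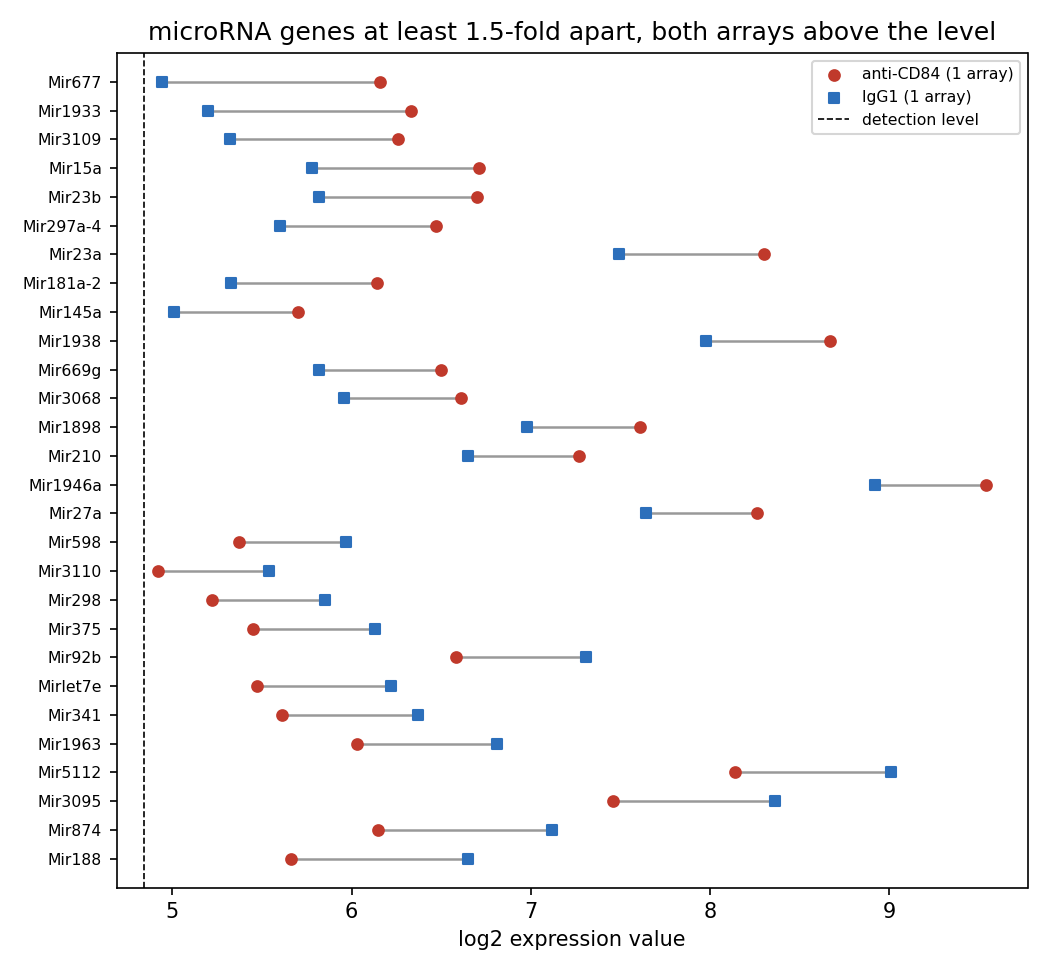
Log2 expression values (horizontal axis) of the 28 microRNA genes at least 1.5-fold apart with both arrays above the detection level (dashed line), each row 1 gene, with a circle for the anti-CD84 array and a square for the IgG1 array. The 16 upper rows are higher after anti-CD84, from 1.53-fold to 2.33-fold, and the 12 lower rows are lower, from 1.51-fold to 1.99-fold.

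Members above the detection level on 1 array alone are given with folds counted from that level, written "at least", which allow for no noise in the brighter value. Of these 43 members 8 lay at least 1.5-fold from the level. Higher after anti-CD84 were Mir540 (5.98 after anti-CD84, 4.60 after IgG1, at least 2.2-fold) and Mir3091 (5.82 and 4.18, at least 1.97-fold), which lies in the ribosomal protein gene Rps21. Mir344 (5.58 and 4.44), Mir5124a (5.47 and 4.73) and Mir709 (5.47 and 4.65) were at least 1.66-fold, 1.55-fold and 1.54-fold higher. Lower after anti-CD84 were Mir713 (4.59 and 5.59, at least 1.68-fold), Mir542 (4.83 and 5.57) and Mir290a (4.63 and 5.57), the last 2 at least 1.66-fold. The other members named here have wide measured gaps that rest on a value below the level, so their gaps have no order. They are Mir5119 (5.33 and 3.66, at least 1.40-fold), Mirlet7a-2 (5.11 and 3.47, at least 1.2-fold) and Mir3471-1 (4.95 and 3.51, at least 1.08-fold) on the higher side. On the lower side they are Mir335 (3.93 and 5.39, at least 1.46-fold), Mir128-2 (3.63 and 4.99, at least 1.11-fold), Mir3962 (4.07 and 5.25, at least 1.33-fold) and Mir3093 (4.25 and 5.35, at least 1.42-fold). Mir335 lies in the imprinted gene Mest, which was below the level on both arrays.

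The let-7 family, which promotes differentiation and represses Lin28 and Hmga2, was split. Of 12 measured members, Mir98 included, 5 were detected. Mirlet7a-2, Mirlet7c-1 (5.15 after anti-CD84, 4.61 after IgG1) and Mirlet7c-2 (5.83 and 5.66) were higher, and Mirlet7a-1 (5.66 and 6.06) and Mirlet7e were lower. Mirlet7a-1 and Mirlet7a-2 both contain the let-7a-5p strand printed above and differed in opposite directions, although the IgG1 value of Mirlet7a-2 was below the level. The 7 members not detected lay between 2.53 and 4.46, and the signs of the 5 were the same under the 3 other scalings. Mirlet7a-2 and Mirlet7c-1 were above the level on the anti-CD84 array alone, which fixed their sign, so of the 3 let-7 members above it on both arrays 1 was higher and 2 were lower. Lin28a, the RNA-binding protein that blocks let-7 processing, read 4.52 and 5.04, above the level on the IgG1 array alone, and Lin28b was below the level on both arrays.

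Other seeds were shared by 2 detected genes each. Mir128-1 (4.98 after anti-CD84, 4.44 after IgG1) and Mir128-2, which yield the same miR-128-3p strand, were each above the level on 1 array alone, opposite arrays, which fixed their signs. Mir218-1 (6.73 and 7.05), in the axon guidance gene Slit2, and Mir218-2 (4.2 and 4.98), in Slit3, were both lower, the second with its anti-CD84 value below the level. Mir99a (6.84 and 6.86) and Mir99b, which share the miR-99-5p seed, differed by -0.02 and 0.43. Mir28a (5.29 and 5.62) and Mir708 (4.9 and 5.08) were both lower within 1.5-fold.

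Clusters were counted by how many of their measured precursors were detected. Runs of microRNA genes less than 10 kb apart in the RefSeq table held at least 2 measured genes in 54 cases. In 24 of the runs 0 members were detected, in 30 at least 1 was, and in 7 all measured members were. Of all 483 microRNA genes 36.0% were detected. Whether these counts differ from those of unlinked genes was not tested, and nothing is read from them about clusters. In the miR-449 run Mir449b was above the level on both arrays, whereas Mir449a read 4.66 after anti-CD84 and 3.97 after IgG1, and Mir449c 3.26 and 3.12, both below it. Cdc20b, the gene whose span holds them, read 4.53 and 4.52. Mir23a and Mir27a were both above the level on both arrays.

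In the miR-17-92 cluster, a promoter of proliferation, 1 of 4 measured precursors was detected, Mir18, at 5.04 after anti-CD84 and 4.84 after IgG1. Mir17 (4.58 and 4.34), Mir19a (3.74 and 3.97) and Mir20a (3.64 and 3.59) lay below the level. Mir106b, in the replication gene Mcm7, read 4.71 and 5.33, with Mcm7 at 9.29 and 9.23. Of the miR-106b cluster it was the 1 precursor measured of 3 listed, and it was above the level on the IgG1 array alone. Mir191 (5.57 and 5.85) and Mir425 (5.70 and 5.39), neighbours in Dalrd3, lay on opposite sides within 1.5-fold. A second Mir191 probe set, below the level on both arrays, read 4.74 and 4.67, on the same side as Mir425.

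**Figure D3:**
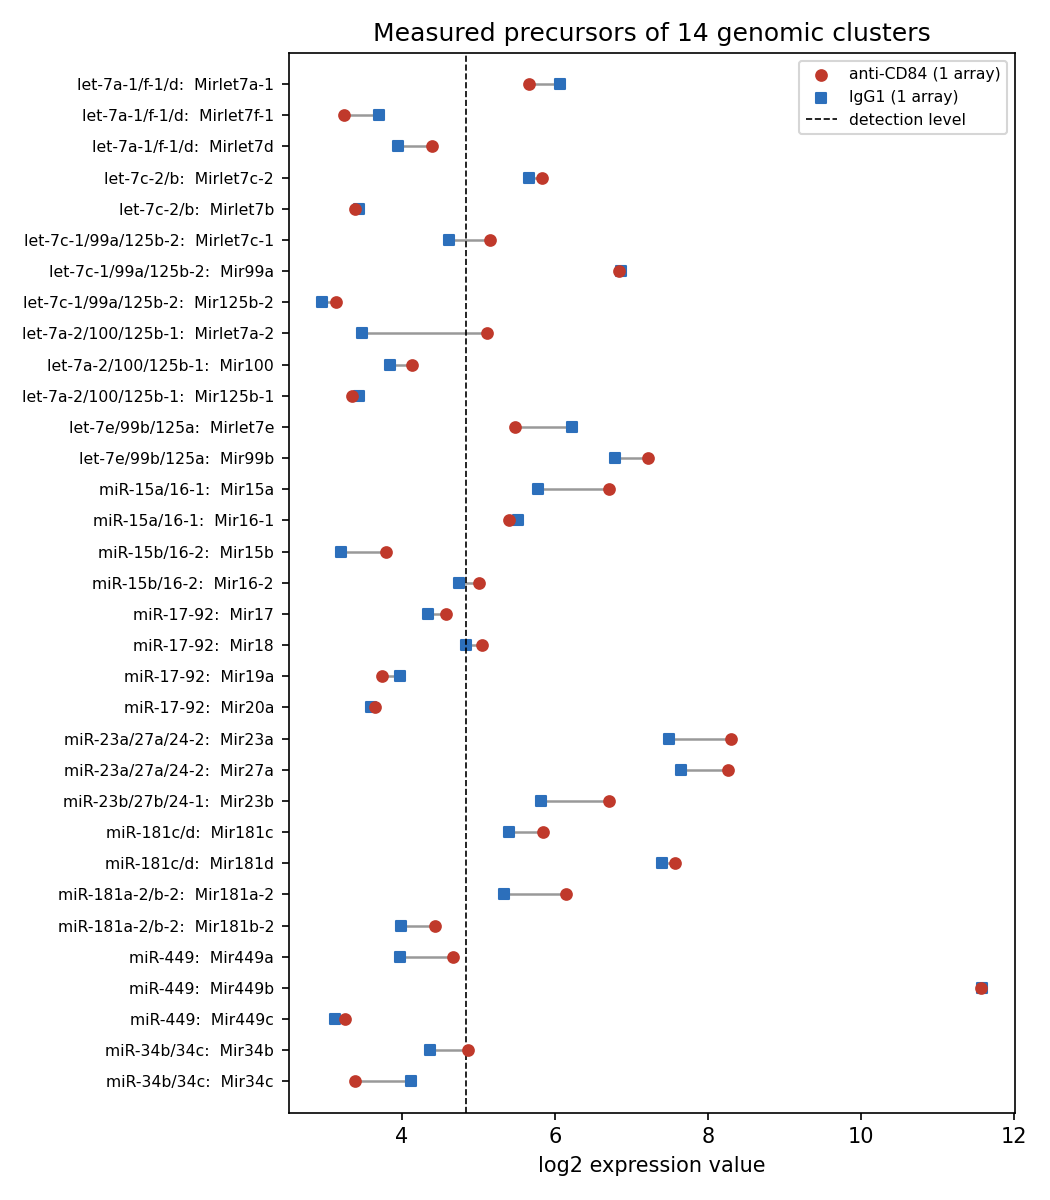
Log2 expression values (horizontal axis) of the measured precursors of 14 genomic clusters, each row 1 gene labelled by cluster and symbol, with a circle for the anti-CD84 array, a square for the IgG1 array and a dashed line at the detection level. Mir449b stands near 11.6 while its cluster partners lie below the level, and Mir23a, Mir27a and Mir23b lie above it with the anti-CD84 value to the right.

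The 2 largest microRNA clusters of the mouse had different shares detected. In the run of Mir466, Mir467, Mir669 and Mir297 copies inside Sfmbt2 on chromosome 2, a rodent-specific array of near-identical hairpins, 11 of 22 measured genes were detected, all on both arrays. Of these 8 were higher and 3 lower (7 and 4 under each of the 3 other scalings), and their differences ran from -0.33 to 0.87. Nothing is read from these counts, since the share of all detected genes that were higher was not counted. Mir669g (6.5 after anti-CD84, 5.82 after IgG1) and Mir297a-4 (6.47 and 5.60) passed 1.5-fold (Mir669g not with quantile normalization), and Mir669a-3 read 8.49 and 8.33. Sfmbt2 itself read 6.32 and 6.19. These copies are uncertain as single genes: of the 9 probe sets that name Mir669k, 3 hold the same pair of values, 6.55 and 6.29, and 6 of the 7 that name Mir466b-2 read 4.83 and 4.25 alike. Those 6 were higher after anti-CD84, though below the level on both arrays. The brightest Mir466b-2 probe set, the one counted, read 6.30 and 6.63 and gave the low end of -0.33.

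In the imprinted Dlk1-Dio3 region on chromosome 12, active in embryonic and some stromal cells, most precursors were not detected. The run from Mir379 to Mir409 had 5 of 32 measured members above the level: Mir758 (5.31 after anti-CD84, 5.86 after IgG1), Mir329 (5.28 and 5.18), Mir666 (5.77 and 5.65), Mir409 (5.22 and 4.86) and Mir667. The run around Mir673 had 4 of 7, namely Mir673 (6.69 and 6.44), Mir665 (5.63 and 5.65), Mir3070a (5.06 and 4.92) and Mir540. Mir1188, next to Mir341, read 4.51 and 4.91. Apart from Mir540, Mir341 and Mir667, these members lay within 1.5-fold. In the Hox clusters Mir615 (4.84 and 5.13) and Mir196a-2 (4.47 and 4.95) were detected of 4 measured microRNAs.

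Of clusters known from other lineages, some had no detected member and some had 1. With 0 detected were miR-200a/b and miR-141/200c of epithelia (4 measured genes, 2.73 to 4.52), the miR-302 cluster of pluripotent cells (5 genes, 2.68 to 3.79) and the miR-183 cluster of sensory organs (3 genes, 2.91 to 4.1). With 1 detected member were the miR-290 cluster of pluripotent cells (Mir290a) and the miR-451 cluster of red cells (Mir451a), each above the level on the IgG1 array alone, and the miR-449 cluster given above. Of the miR-290 cluster Mir290a was the 1 precursor measured of 11 listed, and of the miR-451 cluster 2 were measured. Other clusters also had members on both sides of the detection level. Mir212 read 5.66 after anti-CD84 and 5.54 after IgG1 beside Mir132 at 3.08 and 3.48, and Mir194-1 read 6.38 and 5.97 beside Mir215 at 3.95 and 4.17. Mir222, a repressor of the cell cycle inhibitor Cdkn1b, read 4.71 and 5.2 beside Mir221 at 3.68 and 3.77. Mir483, in the imprinted growth factor gene Igf2, read 7.07 and 7.44. Mir30d (5.24 and 4.9) and Mir30c-1 (4.98 and 4.86) were the 2 detected of 6 measured in the miR-30 family.

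Some microRNAs named for their link to p53 or NF-kB were examined whatever their level. Mir34a, a direct target of p53, read 3.75 after anti-CD84 and 3.34 after IgG1, and Mir34c 3.38 and 4.12, both below the level. Mir34b was above it on the anti-CD84 array by a small margin. Mir146 (2.90 and 2.98) and Mir146b (4.50 and 4.13), both induced by NF-kB, were not detected. Mir142, a microRNA of blood cells, read 5.39 and 4.55 while leukocyte markers were not detected. Mir21a and Mir155 are named only by probe sets with several symbols and were not used here.

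Among the genes with a hairpin sequence, detection went with the base composition of the hairpin. The set of RefSeq sequences used gives a hairpin for 400 of the 483 microRNA genes, 134 of them detected. It lacks the 22 measured genes of the Sfmbt2 run, of which 11 were detected, the bright Mir466h and Mir669a-3 among them. The GC content of the missing hairpins was not known, so the shares below hold for the 400 genes alone. Of the 46 hairpins with a GC content of 60% or more 37 were detected, or 80.4%. From 50% to 60% GC 51 hairpins or 38.3% were detected, from 40% to 50% it was 40 of 160, or 25%, and under 40% it was 6 of 61, or 9.84%. The median GC content was 53.4% for detected and 46.2% for undetected hairpins, and their median lengths were 85.5 and 82.0 bases. Across the 400 genes, GC content and mean level correlated with a Pearson r of 0.397 and a Spearman rho of 0.474. Within the 134 detected genes that r was 0.039, and for GC content against the difference between arrays it was -0.133. These genes share the same 2 samples and array design, so the values are descriptions, and the GC content of the probes was not used here.

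Exceptions lay at either end, with 6 detected hairpins under 40% GC and 9 undetected at 60% or more. The hairpin of Mir5099, the brightest member, has 37.8% GC, and that of Mir703 31.2%, while of the other 4 detected under 40% GC, Mir1898, Mir721, Mir3083 and Mir16-2, the highest value was 7.61. Mir874, among the members lower after anti-CD84, has a hairpin of 76 bases with 68.4% GC at chr13:58023125-58023200 on the minus strand. Both are printed without capitals, since no seed is marked, to show the contrast in composition.
Mir5099 hairpin: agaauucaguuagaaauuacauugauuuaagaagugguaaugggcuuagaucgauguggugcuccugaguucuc
Mir874 hairpin: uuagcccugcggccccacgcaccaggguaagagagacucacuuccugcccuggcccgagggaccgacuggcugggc

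**Figure D4:**
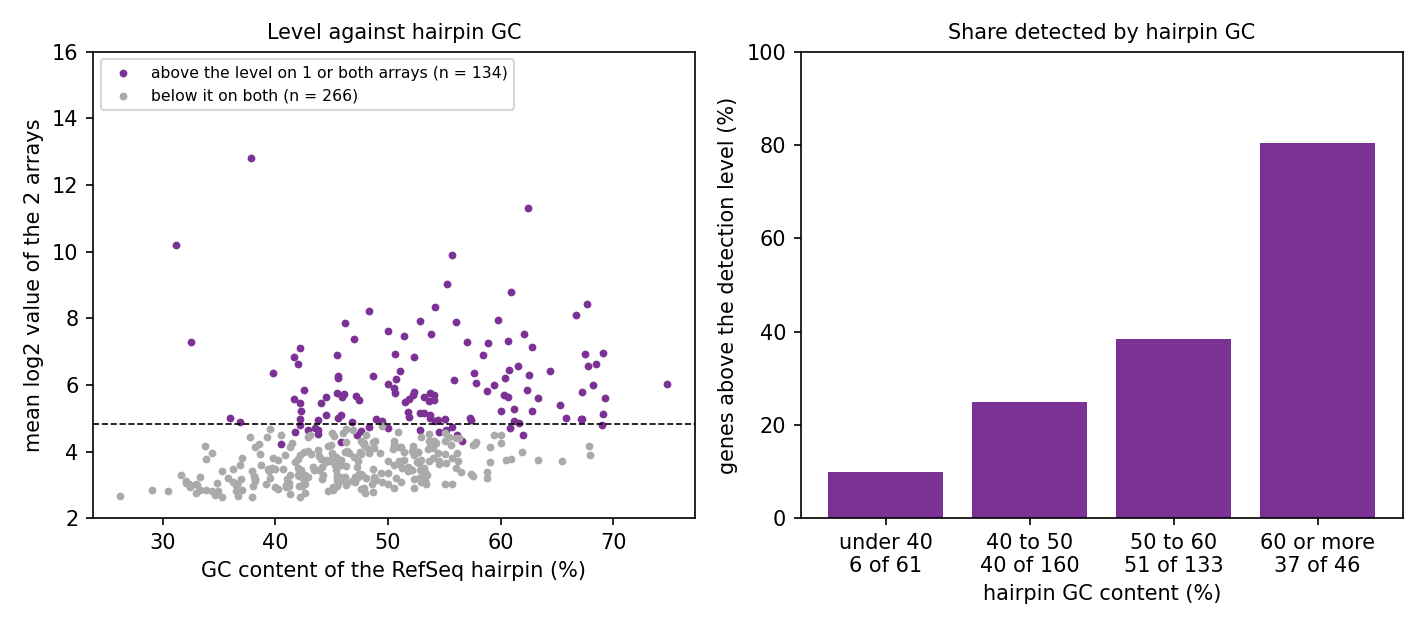
Left, mean log2 value of the 2 arrays (vertical axis) against the GC content of the RefSeq hairpin in percent (horizontal axis) for 400 microRNA genes, coloured by detection, with the detection level dashed. Right, the share of genes above the detection level in 4 bands of GC content, which goes from 9.84% under 40% GC to 80.4% at 60% GC or more.

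Members were set beside the genes that host them. Of the 147 members with a strand in the sequence set used, 85 lie in the span of a gene on the same strand. For 62 of these the host was measured and detected. The difference had the same sign in member and host in 33 of the 62 pairs. Across the pairs, which rest on 58 hosts and the same 2 arrays, the differences correlated with an r of -0.063 and a rho of 0.004. Of the 19 members in these pairs past 1.5-fold, 7 had a host with the same sign and 0 had a host past 1.5-fold in the same direction. Members above the level on 1 array alone are among the pairs, Mir5119, Mir344 and Mir106b for example. Their sign was fixed by the filter, so these counts and correlations are not read as a result. Pairs without a strand entry are not among the 62: Mir145a and Carmn, given above, were both past 1.5-fold higher. Carmn was so by a small margin, at 1.504-fold, and its value under the other scalings was not computed. Mir143, also within Carmn, differed by 0.10. Mir5123 lies in B4galt1, the galactosyltransferase gene at 10.53 after anti-CD84 and 9.52 after IgG1, and read 7.58 and 7.16.

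**Figure D5:**
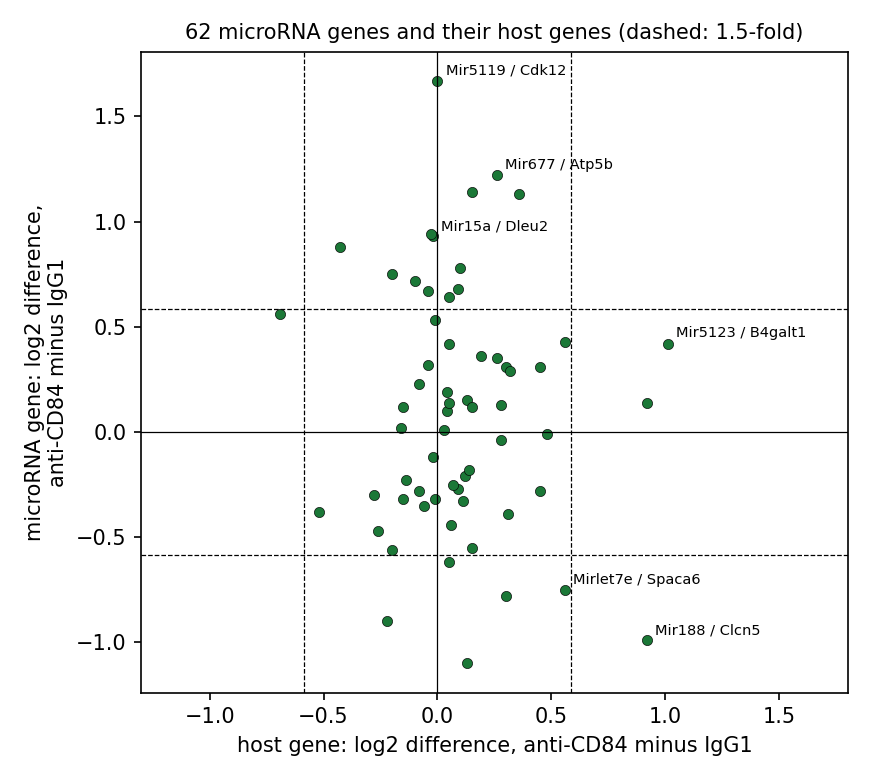
Log2 difference, anti-CD84 minus IgG1, of 62 microRNA genes (vertical axis) against that of the detected gene that spans each on the same strand (horizontal axis), 1 array per group, with dashed lines at 1.5-fold. The points form no line, and the upper right and lower left corners past both dashed lines are empty. Members above the level on 1 array alone, whose sign the filter fixed, are among the points.

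The genes that make and use microRNAs were measured from a list of processing, silencing and regulatory factors. Of 31 measured genes 29 were detected, 1 was at least 1.5-fold higher, 0 were lower and 28 lay within 1.5-fold, against 10.7% higher and 6.4% lower of all detected genes. Most of the machinery genes had a mean above 8, and of all detected genes at 8 or more 6.19% were higher and 1.72% lower. The median difference was 0.19, beside 0.09 for all detected genes, and 22 of the 29 were higher (20 or 21 under the 3 other scalings). The share of all detected genes that were higher was not counted, so nothing is read from the 22. Adar, the interferon-inducible enzyme that edits double-stranded RNA, microRNA hairpins among it, was the 1 past the fold, at 7.83 after anti-CD84 and 7.11 after IgG1, or 1.65-fold.

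The core processing factors lay within 1.5-fold. Drosha read 8.86 after anti-CD84 and 8.61 after IgG1, the nuclear exporter Xpo5 9.0 and 8.98, and Dicer1 8.75 and 8.67. Ago2, the Argonaute that can cut its target, read 10.21 and 9.66, or 1.46-fold higher, and Ago3 8.10 and 7.71, while Ago1 differed by -0.02 and Ago4 was not detected. Tnrc6a, a GW182 protein that recruits the deadenylases, read 9.09 and 8.58, or 1.42-fold higher. Srrt, which links capped transcripts to Drosha, read 9.19 and 9.55. Probe sets for Dgcr8 and Hnrnpa1 name several genes and were not used here.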

How the data were processed

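RNA of 1 culture per treatment was hybridised to 1 array each, with 200 ng of RNA as input per the labels' protocols. The deposited values are log2 summaries, 1 per probe set and array, made with RMA and Partek per the submitters' processing notes, with no versions or settings; the log2 scale was inferred from the values, and whether the arrays were normalized together is not given in the sources used here. Arrays understate differences of dim probes. Of 41345 probe sets, 23521 have 1 gene symbol in GEO's platform annotation, 1814 have several and 16010 are not named. Those with several were not used, among them 136 that name a microRNA. The brightest probe set (mean of the 2 arrays) stood for each of 22180 genes. Symbols came from the platform annotation, and all 174 members matched RefSeq gene IDs (GRCm38.p6). In the set of RefSeq sequences used, which was incomplete, 134 matched a hairpin and 144 a mature sequence. Clusters and hosts were found from RefSeq gene positions.

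With 1 array per group no test exists; counts past 1.5-fold and 2-fold are given beside those of all detected genes. Named were members past 1.5-fold on both arrays, the 12 brightest, members of clusters with at least 2 detected, the Mir34 family, Mir21a, Mir155, Mir146 and Mir146b, the 5 highest and 5 lowest of members above the level on 1 array, those next to the level, hosts, and core machinery. Shared-seed pairs, clusters with under 2 detected members, Mir142, Mir721, Mir3083, the members at least 1.5-fold from the level, machinery beyond the core, Carmn, Cdc20b, Sfmbt2 and Mir5123 with its host were added after their values were seen. The members and lists were chosen with earlier results of these data known. Counting was tested on simulated data with large planted differences and little noise, which checks the code and not the calls made here. Alternatives were centring, a lowess curve (span 0.4), quantile normalization, other level filters, the mean of probe sets and flooring. Python 3.11.15, numpy 2.4.6, pandas 2.3.3, statsmodels 0.14.6 and matplotlib 3.10.9 were used.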

Additional observations from a re-analysis of the deposited data

How the results depend on the processing

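Limits of these results are the single array per group, the dim signal of most microRNA probe sets and the unstated normalization. No paired analysis was possible because each group has 1 array, and for the same reason leaving out a replicate was not run. Other settings gave the following, against 30 members at least 1.5-fold higher, 24 lower, 9 at least 2-fold higher, 4 lower and a median difference of 0.10. With the difference centred, 8 members were 2-fold lower and the median was 0.01; with a loess curve removed, 7 and 0.03; with quantile normalization, 7 and 0.02. Without a level filter, over 483 genes, 55 were 1.5-fold higher, 59 lower and 11 were 2-fold lower, and the median turned to -0.01. At the stricter level of 6.88, the 75th percentile of all values, which leaves 44 members, 6 were 1.5-fold higher and 4 lower, 0 were 2-fold apart in either direction and the median was 0.00. Requiring both arrays above the level gave 16 and 12 at 1.5-fold, 2 and 0 at 2-fold and a median of 0.07. Flooring gave 15 members 1.5-fold lower, 3 and 0 at 2-fold and a median of 0.07. Stricter filters and flooring lower the counts by construction; the cause of the other moves was not tested. For the machinery genes the median of 0.19 became 0.11 centred, 0.08 with a loess curve removed, 0.10 with quantile normalization and 0.20 with both arrays above the level, and centring put 1 gene, Lin28a, past 1.5-fold lower. The 28 named members past 1.5-fold on both arrays kept their sign under the 5 alternatives that give each of them a value, and 23 stayed past 1.5-fold when centred, 22 with the loess curve removed, 22 with quantile normalization and 27 with the mean of probe sets, where Mir669g did not. Values of members near the detection level cannot be ordered.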
